A study of Homo sapiens with 6 samples.

Results

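The genes described here are 49 regulators of pre-mRNA splicing, chosen by symbol as the hnRNP proteins, the SR and TRA2 proteins and a set of other RNA-binding regulators of splicing, and they were found as 49 of the 60624 genes in the deposited count table. PTBP, RAVER and ESRP genes were not part of the set. The counts came from polyA RNA of A549, an established line of human lung adenocarcinoma cells. Of 6 libraries, 3 were from A549 cells carrying a CRISPR/Cas9 deletion of RAVER1 (RAVER1 KO) and 3 from parental A549 cells (WT). RAVER1 encodes an RNA-binding cofactor of the splicing repressor PTBP1, and the comparison asks whether its loss was accompanied by changes in the mRNA levels of other splicing regulators. The KO titles share the name KO2, which is not said to be 1 clone or several, so p-values reflect how much these libraries varied and say nothing of variation among independently made KO lines.

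Pre-mRNA splicing is steered by proteins that bind exons and introns and help or hinder the spliceosome at nearby splice sites. SR proteins mostly promote exon inclusion from exonic enhancers, many hnRNP proteins repress exons, and the NOVA, RBFOX, CELF, MBNL and QKI families act according to where they bind around an exon, often in particular tissues. Several of these genes control their own mRNA through exons that lead to nonsense-mediated decay, so mRNA and protein levels need not move together, and gene counts do not show exon use.

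Total counts were 31200927 to 39910127 per KO library and 29811747 to 34359060 per parental library. RAVER1, the check of the labels, averaged 2.73 ± 0.165 CPM in KO and 69.7 ± 3.80 CPM in parental libraries (SD, n = 3 each). CPM are read counts scaled to library size, with TMM factors from edgeR. Among 16652 genes with enough counts to be tested, 41.4% passed an adjusted p of 0.05 in the edgeR quasi-likelihood test. Chromosome 2 was raised as a whole, with a median log2 fold change of 0.42 over its 1125 tested genes. The epithelial and A549 markers were expressed in both groups, at a summed 13753 to 14657 CPM in KO and 18597 to 19081 CPM in parental libraries, with 7 of 9 lower in KO. Leukocyte markers summed to 3.90 to 5.20 CPM in KO and 5.11 to 5.79 CPM in parental libraries with CD3E at 0, and endothelial markers to at most 0.129 CPM in KO and 0.0658 CPM in parental libraries. Fibroblast markers summed to 64.3 to 68.8 CPM in KO and 46.9 to 49.8 CPM in parental libraries, and 3 of 6 were tested and all 3 were higher in KO. Of all tested genes, 21.3% were called higher and 20.1% lower. The part of these marker differences in the results on the regulators was not tested. In bulk RNA, fewer cells of a type and less RNA per cell cannot be told apart.

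Splicing regulators were called about as often as other genes, in both directions, and mostly by small amounts. Of the 49 genes, 46 passed the filter on low counts, 9 were higher in KO, 9 were lower, and 28 did not pass the threshold. That is 39.1% of the tested regulators called, against 41.4% of all tested genes. The 9 higher genes stand against a background of 21.3% of all genes called higher, and the 9 lower against 20.1% called lower. With upper-quartile scaling the split was 6 higher and 12 lower, with the median of all genes moved by -0.033. All tested genes tilted the same way under that scaling, with 3098 higher and 3872 lower of 16652, against 3543 and 3343 with TMM. The changes were small: the median absolute log2 fold change was 0.082 over the regulators and 0.19 over all tested genes. Only 2 of the 46, NOVA1 and NOVA2, were called with a change of at least 1.5-fold, a size reached by 14.4% of all tested genes. KO and parental CPM ranges did not overlap for 23 of the 46, against 50.2% of all genes.

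Most of these genes are abundant, which narrows their error, so genes above a limit of 20 CPM were also counted. The limit was chosen after the values were seen, and it does not match the regulators and the other genes in abundance above it. Of 43 regulators with a mean of at least 20 CPM, 16 were called (37.2%), against 48.5% of all genes above that limit. Their median absolute log2 fold change was 0.080, and that of all genes above the limit was 0.13. Together the 49 genes held 1.18, 1.24 and 1.22% of all counts in KO replicates 1, 2 and 3, and 1.26, 1.29 and 1.27% in parental replicates 1, 2 and 3. Their summed level was 12065 to 12443 CPM in KO and 12586 to 12652 CPM in parental libraries. The hnRNP genes summed to 7223 to 7492 CPM in KO and 7751 to 7850 CPM in parental libraries, while SR and TRA2 genes summed to 1893 to 1959 CPM in KO and 1893 to 1907 CPM in parental libraries.

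**Figure D1:**
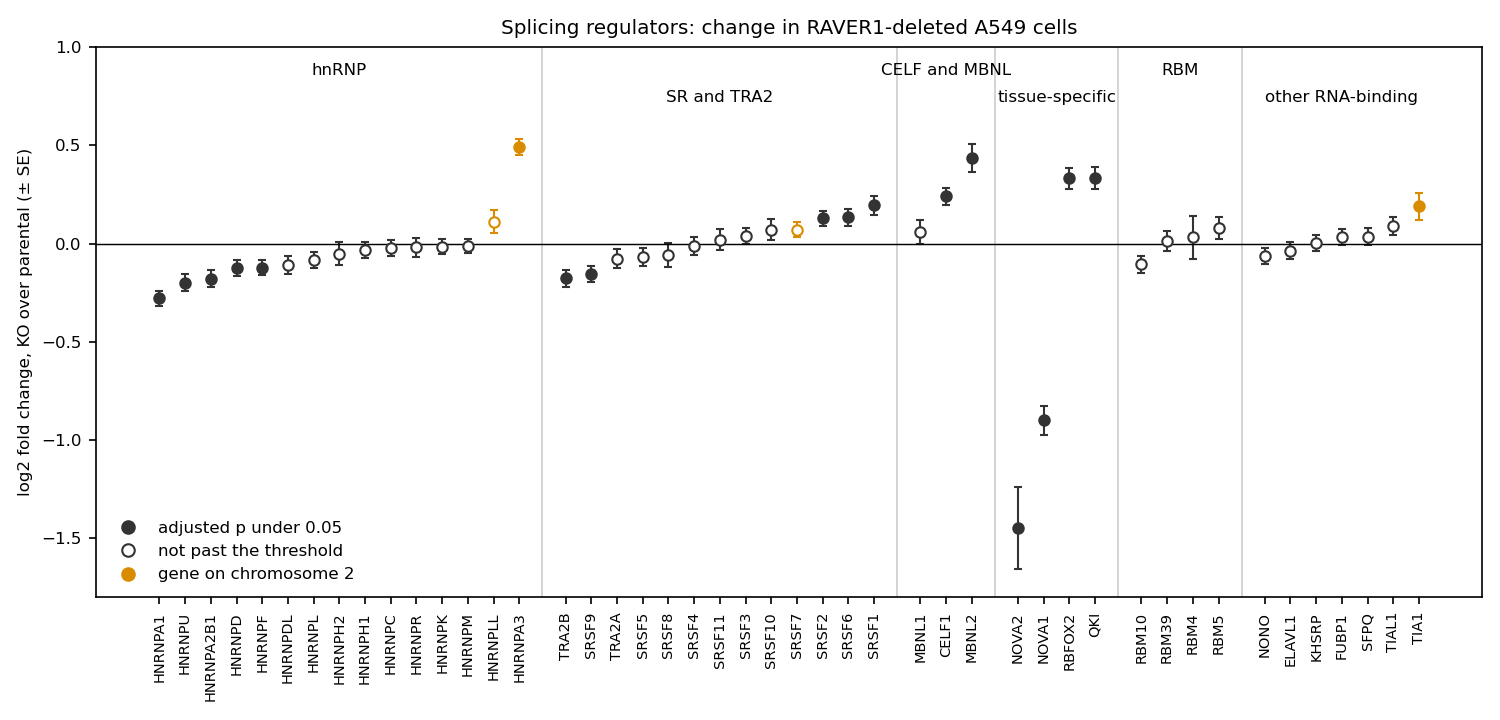
Log2 fold change of each tested splicing regulator, RAVER1 KO over parental, with its standard error, grouped by family and marked by whether it passed the edgeR threshold. NOVA1 (-0.90) and NOVA2 (-1.45) stand apart from the others, which lie between -0.28 (HNRNPA1) and 0.49 (HNRNPA3).

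Among regulators outside chromosome 2, 7 of 42 were higher in KO, with a background of 18% of genes outside that chromosome, and 9 of 42 were lower, with a background of 21.1%. Their median log2 fold change was -0.018, and that of all genes outside chromosome 2 was -0.013. On chromosome 2 itself, 2 of 4 regulators were higher and the other two did not pass in edgeR, where 66.8% of all tested genes of the chromosome were higher.

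**Figure D2:**
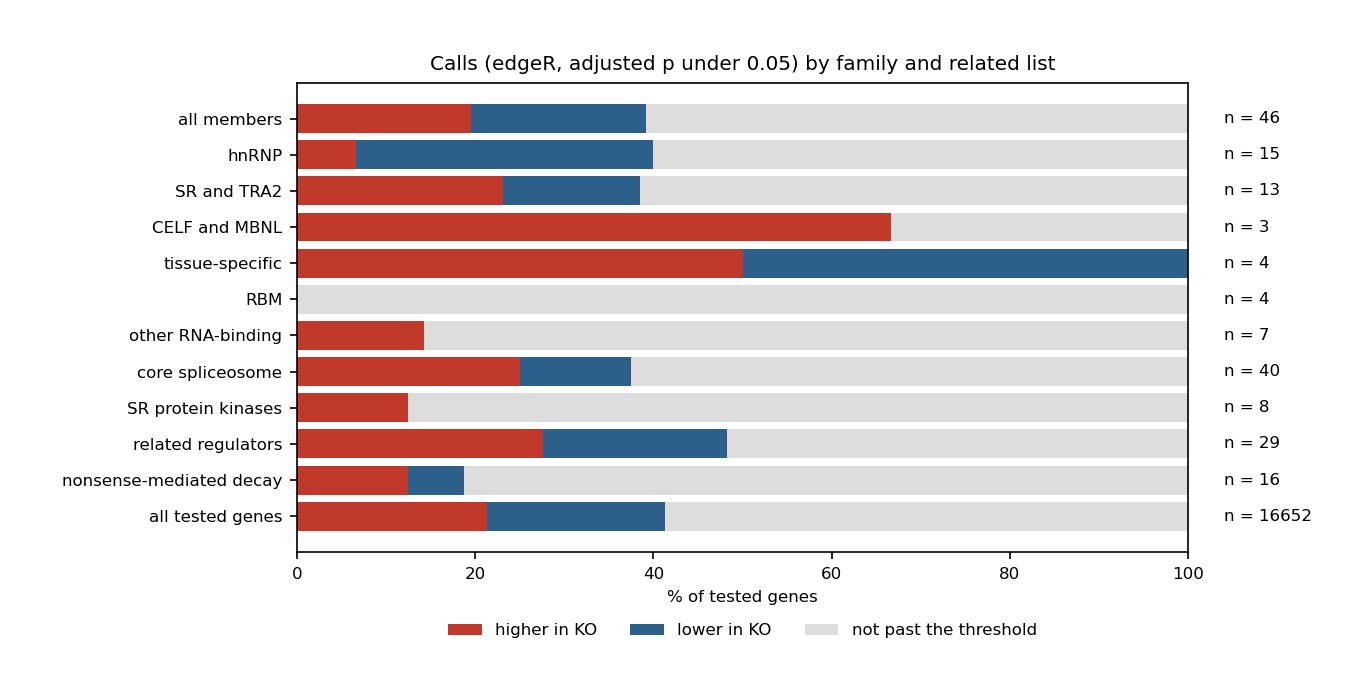
Share of tested genes (%, with their number at the right) that were higher in RAVER1 KO, lower in RAVER1 KO or not past an edgeR adjusted p of 0.05, for all regulators (all members), each family, related gene lists and all tested genes. The hnRNP genes have 1 higher and 5 lower, and the SR and TRA2 genes 3 higher and 2 lower.

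The 2 NOVA genes fell more than any other tested gene of the set. NOVA1 and NOVA2 encode KH-domain proteins that bind YCAY motifs and are best known as regulators of neuronal splicing. NOVA1 (ENSG00000139910, hg38 chr14:26443093-26597754, minus strand) was measured at 11.0, 10.8 and 10.6 CPM in KO libraries and 18.6, 21.1 and 20.7 CPM in parental libraries. The KO values lie close together and all fall well below the lowest parental library. NOVA1 averaged 10.8 ± 0.183 CPM in KO and 20.1 ± 1.31 CPM in parental cells (SD, n = 3 each). The log2 fold change was -0.90 (SE 0.074, edgeR adjusted p 1.07e-08). NOVA2 (ENSG00000104967, hg38 chr19:45933734-45973546, minus strand) was rare, with 23, 23 and 17 counts in KO libraries and 51, 45 and 57 counts in parental libraries. These counts gave 0.595, 0.578 and 0.548 CPM in KO and 1.49, 1.48 and 1.75 CPM in parental libraries, with no overlap between the groups. The fall had a log2 fold change of -1.45 (SE 0.21, edgeR adjusted p 1.71e-05), and the larger error goes with the low counts.

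The genes around NOVA1 and NOVA2 were also counted. All 25 of the nearest tested neighbours of NOVA1 had a larger log2 fold change than NOVA1, with a median of 0.13, 6 called higher and 2 lower in edgeR. Of the 25 neighbours of NOVA2, 22 had a larger log2 fold change than NOVA2, but their median was -0.062, with 1 called higher and 8 lower. Neuronal markers did not fall with the NOVA genes: 4 of 7 were tested, 2 were higher and the other 2 did not pass in edgeR. For these and the neighbour counts, the background was 21.3% of all tested genes called higher and 20.1% called lower. The marker list summed to 41.8 to 46.6 CPM in KO and 24.5 to 26.1 CPM in parental libraries. SNAP25, a synaptic vesicle fusion protein, averaged 19.5 CPM in KO and 3.17 CPM in parental libraries. It made up most of the difference in the sum. The other higher marker, RBFOX3, averaged 9.32 CPM in KO and 6.76 CPM in parental libraries. The lowest log2 fold change among the tested markers was -0.071, and STMN2, ELAVL3 and ELAVL4 were at 0. The part of these markers in the NOVA result was not tested.

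The promoters of both NOVA genes are shown because these related genes, on different chromosomes, fell the most among the tested regulators. Each is 250 bases before to 50 bases after a RefSeq start in GRCh38.p14, given 5′ to 3′ on the gene's strand. For NOVA1, the most upstream of 3 RefSeq starts was taken (chr14:26597984-26598283, minus strand), and NOVA2 has a single start (chr19:45973816-45974115, minus strand). Capitals mark the GC box GGGCGG or its reverse complement CCGCCC, and the CCAAT box CCAAT or its reverse complement ATTGG.
NOVA1: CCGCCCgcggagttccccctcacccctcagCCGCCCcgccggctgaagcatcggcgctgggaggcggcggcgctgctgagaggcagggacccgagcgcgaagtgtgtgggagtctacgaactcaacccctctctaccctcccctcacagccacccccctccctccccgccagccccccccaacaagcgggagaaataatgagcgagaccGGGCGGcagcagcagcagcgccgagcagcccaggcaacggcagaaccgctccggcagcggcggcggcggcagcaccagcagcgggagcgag
NOVA2: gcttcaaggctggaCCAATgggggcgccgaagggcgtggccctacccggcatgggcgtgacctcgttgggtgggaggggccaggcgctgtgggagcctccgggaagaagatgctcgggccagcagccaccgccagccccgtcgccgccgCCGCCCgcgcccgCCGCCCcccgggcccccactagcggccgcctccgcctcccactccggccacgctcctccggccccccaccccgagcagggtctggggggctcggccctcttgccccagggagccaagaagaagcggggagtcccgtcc
The NOVA1 window holds 3 GC boxes and 0 CCAAT boxes and is 72.7% G or C, and the NOVA2 window holds 2 GC boxes and 1 CCAAT box and is 76.7% G or C. Neither holds CACCTG, the only E-box form searched, or the TATA box TATAAA on either strand, and the marked motifs do not overlap. Over 35116 RefSeq promoters, 45.0% held the GC box, 34.6% the CCAAT box, 20.6% the E-box and 11.5% the TATA box. RefSeq promoters were found for 40 of the 49 regulators, and of their 72 windows 51.4% held the GC box, 45.8% the CCAAT box, 6.9% the E-box and 13.9% the TATA box. A gene with several starts counted once per start, and some windows of a gene overlap, as for the untested CELF2. The shares over windows therefore lean on such genes. A match is a stretch of letters and not a measured site.

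RBFOX2 and QKI, the other tissue-specific regulators with enough counts, moved the opposite way from NOVA. Of 4 tested in this family 2 were higher and 2 lower, beside 21.3% higher and 20.1% lower of all tested genes. RBFOX2 binds UGCAUG and is active in many epithelial and mesenchymal cells. Its level was 55.3, 56.0 and 51.1 CPM in KO libraries and 42.0, 42.6 and 44.7 CPM in parental libraries. All KO libraries were above all parental ones, and RBFOX2 rose by 0.33 on the log2 scale (SE 0.055, edgeR adjusted p 7.57e-05). QKI, a STAR-family protein that binds ACUAA motifs in introns and also acts on circular RNA formation, was at 119, 141 and 133 CPM in KO libraries and 101, 108 and 102 CPM in parental libraries. Its KO replicate 1 was closest to the parental range without entering it. QKI rose by 0.34 (SE 0.056, edgeR adjusted p 7.56e-05). The nearest 25 tested neighbours of RBFOX2 (hg38 chr22:35738736-36028425) had a median of 0.034 and 5 of them a larger log2 fold change, and for QKI (hg38 chr6:163414000-163578596) the median was -0.058 with 1 larger. SRRM4, a neuronal activator of microexons, was not detectable at this depth, with 0, 0 and 2 counts in KO libraries and 0 in each parental library.

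MBNL and CELF proteins often act against each other on the same transcripts in muscle and heart, and a member of each family rose. That is 2 of the 3 tested, beside 21.3% of all tested genes called higher. MBNL2 stood at 22.1, 25.7 and 25.3 CPM in KO libraries and 17.1, 18.6 and 18.3 CPM in parental libraries. The groups were separate, with a log2 fold change of 0.44 (SE 0.072, edgeR adjusted p 6.57e-05), and only 2 of its 25 nearest tested neighbours on chromosome 13 had a larger one. MBNL1, the more abundant paralog, had 103 ± 9.53 CPM in KO and 98.6 ± 6.11 CPM in parental libraries (SD, n = 3 each), with overlapping groups and an edgeR adjusted p of 0.468. MBNL1 passed the threshold without KO replicate 1 (0.14, edgeR adjusted p 0.0260). CELF1, which binds GU-rich elements and also promotes mRNA decay, was at 150.6, 156 and 152 CPM in KO libraries and 125, 133 and 130.4 CPM in parental libraries. It rose by 0.24 (SE 0.042, edgeR adjusted p 0.000146), and 9 of its 25 nearest tested neighbours had a larger log2 fold change (median 0.10). CELF2 had no counts in KO libraries and 2, 2 and 0 counts in parental libraries, and MBNL3 had 0, 1 and 0 counts in KO libraries and 0, 0 and 1 in parental libraries. For both, 3 counts correspond to 0.0754 to 0.0966 CPM in a KO library and 0.0875 to 0.0987 CPM in a parental library, so these genes were at or below what this depth can show. Intervals and floors of this kind cover counting error only.

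**Figure D3:**
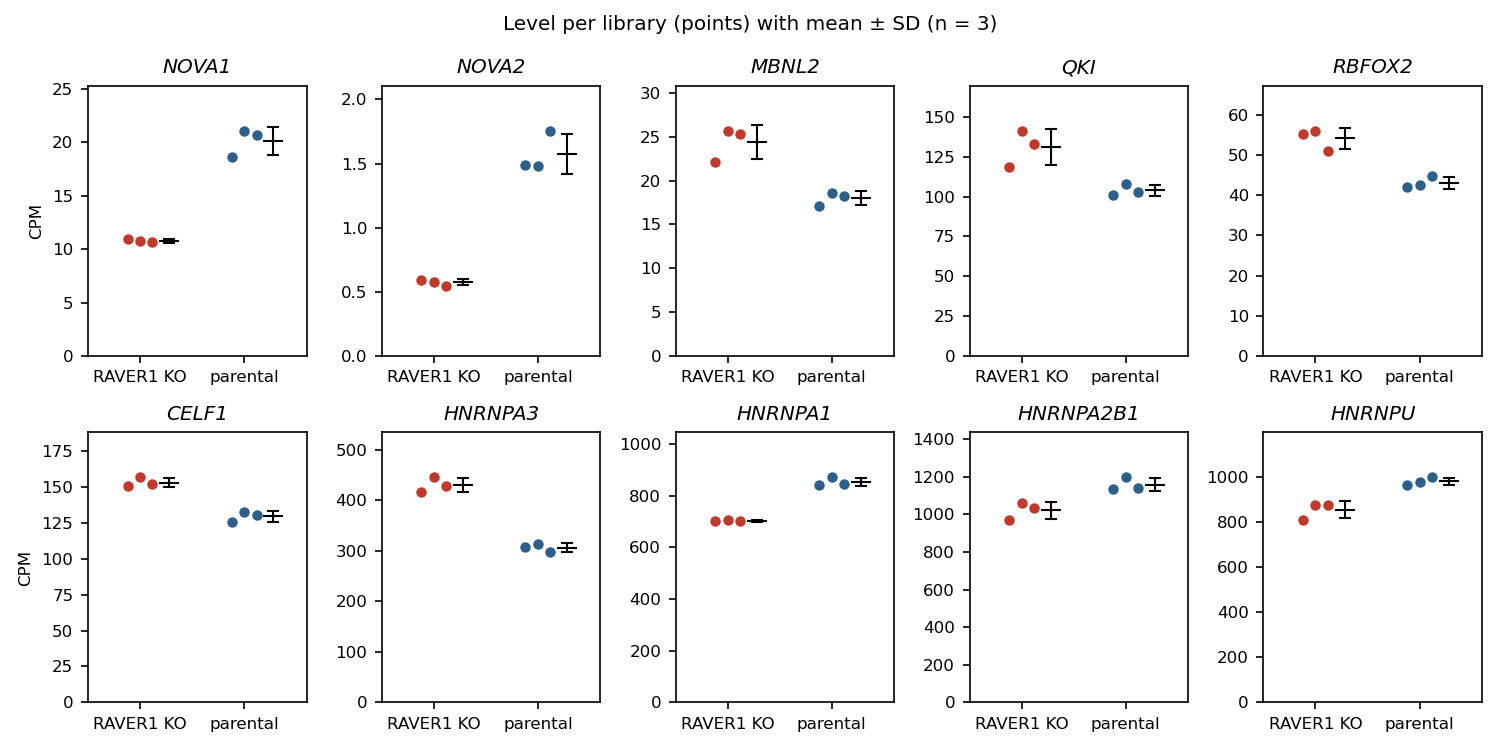
CPM of 10 splicing regulators in each RAVER1 KO and parental library (points), with the mean and SD of the 3 libraries beside them and each axis starting at 0. The 2 groups are separate in all 10 panels, with NOVA1 at 10.8 CPM in KO and 20.1 CPM in parental libraries.

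The hnRNP genes, which include the most abundant regulators of the set, had 1 higher and 5 lower of 15 tested. That is 40% called, near the 41.4% of all tested genes. Their median log2 fold change was -0.052, beside 0.0019 for all tested genes. All 13 hnRNP genes outside chromosome 2 had a negative value, 5 of them past the threshold, beside 7417 positive values and 21.1% called lower among all 15527 tested genes outside that chromosome. Scaling without chromosome 2 turned HNRNPK (0.00063) and HNRNPM (0.0042) to slightly above 0. HNRNPA1, a repressor that binds UAG motifs and competes with SRSF1 at splice sites, was at 700.5, 707 and 701 CPM in KO libraries and 842, 870.0 and 843 CPM in parental libraries. Its KO libraries were nearly alike and all lower than the parental ones, with a log2 fold change of -0.28 (SE 0.038, edgeR adjusted p 7.27e-06). HNRNPA2B1, its close paralog with a role in RNA transport and miRNA sorting, was at 971, 1059 and 1035 CPM in KO libraries and 1134, 1197 and 1140.0 CPM in parental libraries. The groups did not overlap, and HNRNPA2B1 fell by 0.18 (SE 0.042, edgeR adjusted p 0.00215). HNRNPU, a nuclear matrix protein that binds chromatin-associated RNA, was at 811, 878 and 878 CPM in KO libraries and 967, 981 and 999 CPM in parental libraries, and fell by 0.20 (SE 0.041, edgeR adjusted p 0.000728). Smaller falls that passed the edgeR threshold were those of HNRNPD (AUF1), which binds AU-rich elements (312 ± 1.64 CPM in KO, 339.7 ± 7.65 CPM in parental, log2 fold change -0.12, adjusted p 0.0143), and HNRNPF, which binds G-runs (424 ± 6.59 CPM in KO, 462 ± 6.88 CPM in parental, -0.12, adjusted p 0.0136). The HNRNPD call was lost without KO replicate 3 (-0.12, edgeR adjusted p 0.0681) or parental replicate 1 (-0.11, 0.0711), and the HNRNPF call without KO replicate 3 (-0.12, 0.0697) or parental replicate 3 (-0.13, 0.0556).

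HNRNPA3, another hnRNP A/B protein and a chromosome 2 gene, went the other way from its paralogs. It was at 417, 445 and 429 CPM in KO libraries and 308, 314 and 298 CPM in parental libraries, with every KO library above every parental one. HNRNPA3 (ENSG00000170144, hg38 chr2:177212563-177223958, plus strand) rose by 0.49 (SE 0.041, edgeR adjusted p 1.34e-08), the largest rise among the 46 tested regulators. Its 25 nearest tested neighbours had a median of 0.54 with quartiles of 0.23 and 0.69. The rise of HNRNPA3 was thus about that of the genes around it. Of these neighbours 17 were higher in edgeR, beside 66.8% of all tested genes of the chromosome. As shares of the summed RPKM of HNRNPA1, HNRNPA2B1 and HNRNPA3 (the CPM level divided by gene length), HNRNPA3 made up 22.3 ± 0.228% in KO and 14.8 ± 0.231% in parental libraries. HNRNPA1 made up 43.2 ± 0.875% in KO and 48.8 ± 0.233% in parental libraries, and HNRNPA2B1 34.5 ± 0.730% in KO and 36.4 ± 0.283% in parental libraries (SD, n = 3 each). Shares compared between genes depend on the deposited gene lengths.

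The promoters of HNRNPA3 and HNRNPA2B1 are shown as those of paralogs that moved in opposite directions, from RefSeq on GRCh38.p14 with the same window and the same motifs in capitals. HNRNPA3 lies at chr2:177212544-177212843 on the plus strand and HNRNPA2B1 at chr7:26200697-26200996 on the minus strand.
HNRNPA3: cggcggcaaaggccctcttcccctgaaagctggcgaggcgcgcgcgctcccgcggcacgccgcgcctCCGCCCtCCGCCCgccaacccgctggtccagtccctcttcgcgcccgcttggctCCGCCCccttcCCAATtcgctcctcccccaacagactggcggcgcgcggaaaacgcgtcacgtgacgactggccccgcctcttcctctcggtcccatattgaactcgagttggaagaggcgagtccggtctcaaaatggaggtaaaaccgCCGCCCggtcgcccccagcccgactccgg
HNRNPA2B1: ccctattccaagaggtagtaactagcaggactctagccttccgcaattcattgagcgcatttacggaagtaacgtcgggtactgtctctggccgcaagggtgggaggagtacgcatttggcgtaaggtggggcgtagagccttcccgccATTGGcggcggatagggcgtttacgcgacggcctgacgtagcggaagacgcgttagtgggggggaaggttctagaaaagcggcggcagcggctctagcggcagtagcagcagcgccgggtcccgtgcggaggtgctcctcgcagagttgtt
The HNRNPA3 window holds 4 GC boxes and 1 CCAAT box and is 70.0% G or C. The HNRNPA2B1 window holds 0 GC boxes and 1 CCAAT box and is 60.3% G or C. Neither holds CACCTG, the only E-box form searched, or the TATA box TATAAA.

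The hnRNP A genes have many processed copies in the genome, and how reads matching several genes were counted is not given in the sources used here. The table holds 74 HNRNPA1 pseudogene entries, of which 43 had counts, summing to 131, 140 and 132 CPM in KO libraries and 164, 167 and 168 CPM in parental libraries. That is 19.4% of the counts of HNRNPA1 itself, with a KO to parental ratio of 0.808, beside 0.825 for the gene. For HNRNPA3, 16 entries summed to 35.7, 38.0 and 39.3 CPM in KO libraries and 24.9, 27.7 and 26.4 CPM in parental libraries, which is 8.67% of its counts with a ratio of 1.43, beside 1.40 for the gene. The pseudogene entries thus differed between the groups in the same direction as the genes they resemble, and adding them would leave the direction of both as it was. HNRNPA2B1 shares 3.97% of its exon bases with CBX3 on the opposite strand and HNRNPU 15.6% with COX20, and their reads may not be fully separable.

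Other hnRNP genes did not pass the threshold in edgeR. HNRNPK, which binds C-rich RNA, had a log2 fold change of -0.017 (adjusted p 0.768), HNRNPC, a binder of uridine tracts, -0.022 (0.695), HNRNPM -0.013 (0.818) and HNRNPR -0.019 (0.788). HNRNPH1 and HNRNPH2, which bind G-runs, were at -0.033 (0.573) and -0.052 (0.526). HNRNPL, which binds CA repeats, was closer to the threshold at 425, 406 and 419 CPM in KO libraries and 451, 435 and 439 CPM in parental libraries, with groups that did not overlap (-0.084, edgeR adjusted p 0.0957). HNRNPDL was at 208 ± 11.6 CPM in KO and 224 ± 3.15 CPM in parental libraries (SD, n = 3 each), with an edgeR adjusted p of 0.0572. With upper-quartile scaling HNRNPL (-0.12, edgeR adjusted p 0.0286) and HNRNPDL (-0.14, 0.0151) were called lower, and HNRNPL also without KO replicate 1 (-0.097, edgeR adjusted p 0.0379).

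**Figure D4:**
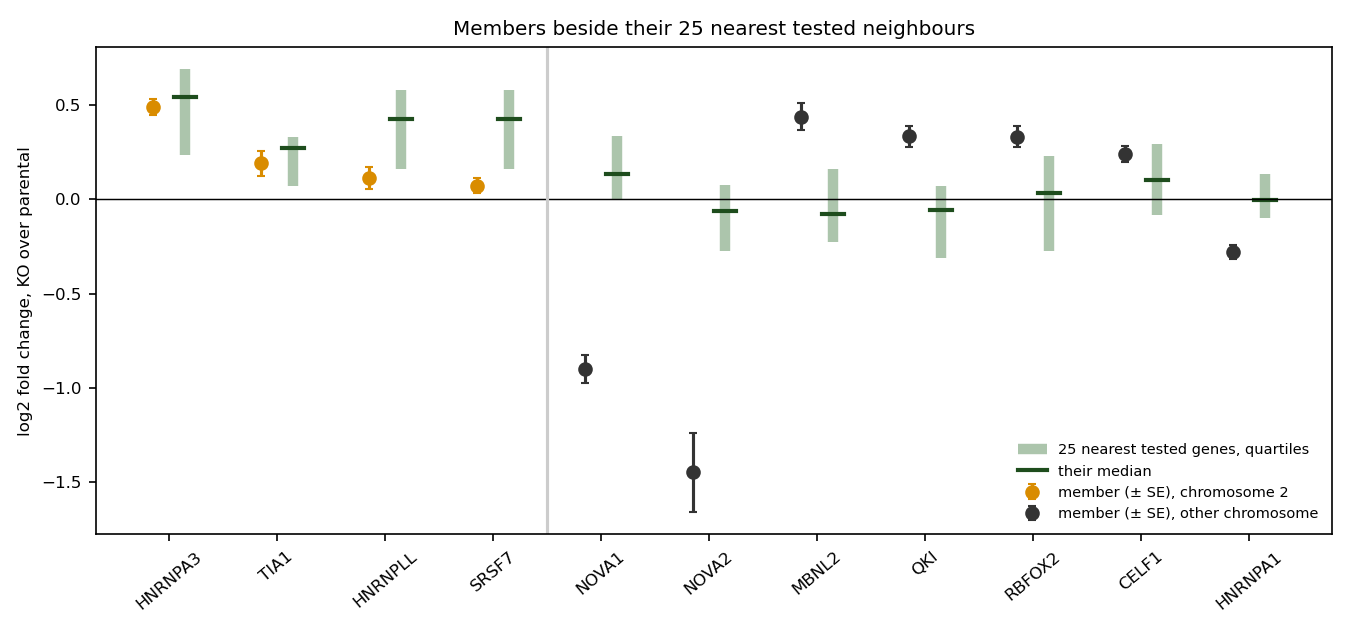
Log2 fold change (RAVER1 KO over parental) of splicing regulators beside the median and quartiles of their 25 nearest tested neighbours on the same chromosome. HNRNPA3 (0.49) lies within the quartiles of its neighbours (0.23 and 0.69), while NOVA1 (-0.90) lies below all of its own.

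HNRNPA3 (0.49 beside a neighbour median of 0.54) and the other chromosome 2 regulators all had fold changes below the median of their neighbours. HNRNPLL, a paralog of HNRNPL that regulates CD45 splicing in lymphocytes, was at 45.2, 51.5 and 50.7 CPM in KO libraries and 45.1, 46.5 and 44.7 CPM in parental libraries. KO replicate 1 lay within the parental range and the other two KO libraries above it, and the log2 fold change was 0.11 (SE 0.058, edgeR adjusted p 0.137). Without KO replicate 1 it was 0.17 (edgeR adjusted p 0.00815). SRSF7, an SR protein with a zinc knuckle that also acts in mRNA export, was at 154, 155 and 155 CPM in KO libraries and 147, 147 and 148 CPM in parental libraries. Those groups did not overlap, but the log2 fold change was only 0.071 (SE 0.040, edgeR adjusted p 0.165). HNRNPLL (hg38 chr2:38561978-38603586) and SRSF7 (chr2:38743599-38751494) lie close together. The 25 nearest tested neighbours of each had a median of 0.43 with quartiles of 0.16 and 0.58. The neighbour sets of HNRNPLL and SRSF7 cover nearly the same stretch and are not separate comparisons. A larger value than the gene's own was found in 19 of 25 around HNRNPLL and 20 of 25 around SRSF7. TIA1, which promotes weak 5′ splice sites and nucleates stress granules, was at 32.7, 38.9 and 35.9 CPM in KO libraries and 29.3, 32.8 and 32.2 CPM in parental libraries. KO replicate 1 fell inside the parental range, and the log2 fold change of 0.19 (SE 0.068, edgeR adjusted p 0.0327) lay beside a neighbour median of 0.27. That fold change was within the neighbour quartiles of 0.072 and 0.33. The TIA1 call was lost without KO replicate 2 (0.13, edgeR adjusted p 0.169), KO replicate 3 (0.19, 0.0733), parental replicate 1 (0.14, 0.157) or parental replicate 3 (0.20, 0.0727). DESeq2 did not call TIA1 either (0.19, adjusted p 0.0547).

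SR and TRA2 genes moved both ways, with 3 higher and 2 lower of 13 tested and a median log2 fold change of 0.019. That is 38.5% called, near the 41.4% of all tested genes. SRSF1, the founding SR protein and an oncogene in several tumours, was at 116, 130.5 and 125 CPM in KO libraries and 109, 111 and 105 CPM in parental libraries. Every KO library lay above every parental one, and SRSF1 rose by 0.19 (SE 0.049, edgeR adjusted p 0.00350). SRSF2 rose to 433 ± 2.81 CPM in KO, against 396 ± 6.18 CPM in parental libraries (0.13, edgeR adjusted p 0.0104), and SRSF6 to 123 ± 3.40 CPM in KO, against 112 ± 1.30 CPM in parental libraries (0.13, edgeR adjusted p 0.0172; SD, n = 3 each). Both calls changed with the libraries used. SRSF2 was not called without parental replicate 3 (0.12, edgeR adjusted p 0.0612) or with upper-quartile scaling (0.095, 0.0631). SRSF6 lost its call without KO replicate 3 (0.12, edgeR adjusted p 0.0924), parental replicate 1 (0.13, 0.0572) or parental replicate 3 (0.12, 0.0996), and with upper-quartile scaling (0.10, 0.0719).

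TRA2B, which binds GAA-rich enhancers and activates exons such as SMN2 exon 7, fell. It was at 153, 166 and 167 CPM in KO libraries and 183, 184 and 182 CPM in parental libraries. The parental libraries were nearly alike and the KO libraries all lower, with a log2 fold change of -0.18 (SE 0.043, edgeR adjusted p 0.00302). Its paralog TRA2A was at -0.078 and did not pass (edgeR adjusted p 0.220). SRSF9 was at 182, 178 and 177 CPM in KO libraries and 202, 194 and 202 CPM in parental libraries, a fall of the same order (-0.16, SE 0.040, edgeR adjusted p 0.00405). SRSF9 shares 46.2% of its exon bases with GATC and SRSF2 36.7% with MFSD11, both on the opposite strand. The strand setting of the counting is not given, so reads of these pairs cannot be told apart here. SRSF1 shares 56.6% of its exon bases with AC015813.2 on the same strand, which averaged 0.3 counts per library. It also shares 13.2% with AC015813.5 on the opposite strand, which averaged 47.8 counts. Reads of SRSF1 and these genes may not be fully separable either. The remaining SR genes, SRSF3, SRSF4, SRSF5, SRSF8, SRSF10 and SRSF11, lay between -0.069 and 0.070 and did not pass. SRSF10 passed without KO replicate 1 (0.13, edgeR adjusted p 0.0307).

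None of the 4 RBM genes passed in edgeR, DESeq2 or limma-voom, and 1, RBM10, had an unadjusted edgeR p under 0.05. RBM10, a regulator of exon skipping that is often mutated in lung adenocarcinoma, had the lowest p among them and was at 119, 116 and 120.3 CPM in KO libraries and 132, 123 and 127 CPM in parental libraries. Its groups did not overlap, with a log2 fold change of -0.10 (SE 0.044, edgeR adjusted p 0.0632). RBM10 was called lower without KO replicate 1 (-0.11, edgeR adjusted p 0.0462), without parental replicate 2 (-0.13, 0.0496) and with upper-quartile scaling (-0.14, 0.0191), and it shares 16.4% of its exon bases with NDUFB11 on the opposite strand. RBM5, a paralog of RBM10 that acts on apoptosis genes, was at 0.080, RBM39, which associates with U2AF, at 0.013 and RBM4 at 0.032. RBM4 shares 24.2% of its exon bases with the readthrough gene RBM14-RBM4 on the same strand, which averaged 13.2 counts per library. It shares 8.95% with its paralog RBM4B on the opposite strand, which averaged 974.7 counts beside 197.0 for RBM4. RBM4B was higher in KO, at 33.2, 31.2 and 28.8 CPM in KO libraries and 24.9, 25.1 and 24.9 CPM in parental libraries (log2 fold change 0.32, edgeR adjusted p 0.000481), and its part in the RBM4 value was not tested.

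Among the other RNA-binding regulators, 1 of 7 tested was higher in edgeR, beside 21.3% of all tested genes. This was TIA1, and the others did not pass. Its paralog TIAL1 was at 94.7, 97.7 and 95.7 CPM in KO libraries and 88.4, 93.5 and 89.1 CPM in parental libraries, without overlap, and did not pass (0.089, edgeR adjusted p 0.124). The paraspeckle proteins SFPQ and NONO, which bind each other, were at 0.035 and -0.062 (edgeR adjusted p 0.548 and 0.235). KHSRP, which promotes mRNA decay and miRNA processing, was at 0.0027 (0.965), FUBP1, a U-rich RNA binder that aids 3′ splice site recognition, at 0.034 (0.537), and ELAVL1 (HuR), a stabiliser of AU-rich mRNAs, at -0.036 (0.553).

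Per gene length, the order of the regulators was largely that of abundant hnRNP proteins first and the NOVA genes last. Such an order depends on the deposited length, which for HNRNPU is 22512 bases, as many as all its annotated exons together. HNRNPU ranked 16th in parental libraries by RPKM, although it was at 982 CPM there, beside 1009 CPM for HNRNPK. An expressed mRNA can be shorter than the deposited length, so levels compared between genes are uncertain. HNRNPK was the highest at 196 RPKM in KO and 198 RPKM in parental libraries, followed by NONO at 161 RPKM in KO and 168 RPKM in parental libraries. HNRNPA1 stood next in parental libraries at 167 RPKM and ranked lower in KO at 138 RPKM, below SRSF2 at 146 RPKM in KO and 133 RPKM in parental libraries. HNRNPF was at 130.5 RPKM in KO, below SRSF2, and 142 RPKM in parental libraries, above it. HNRNPC (129 RPKM in KO, 131 RPKM in parental) and HNRNPA2B1 (110.2 RPKM in KO, 125 RPKM in parental) came after these in both groups. HNRNPA3 was ninth in KO at 71.3 RPKM and 13th in parental libraries at 50.8 RPKM. The lowest tested genes were NOVA1 at 1.04 RPKM in KO and 1.95 RPKM in parental libraries, RBM4 at 0.890 RPKM in KO and 0.869 RPKM in parental libraries, and NOVA2 at 0.0637 RPKM in KO and 0.175 RPKM in parental libraries. The order of NOVA1 and RBM4 near the bottom was clear in parental libraries and less so in KO, where the difference was close to their spread.

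**Figure D5:**
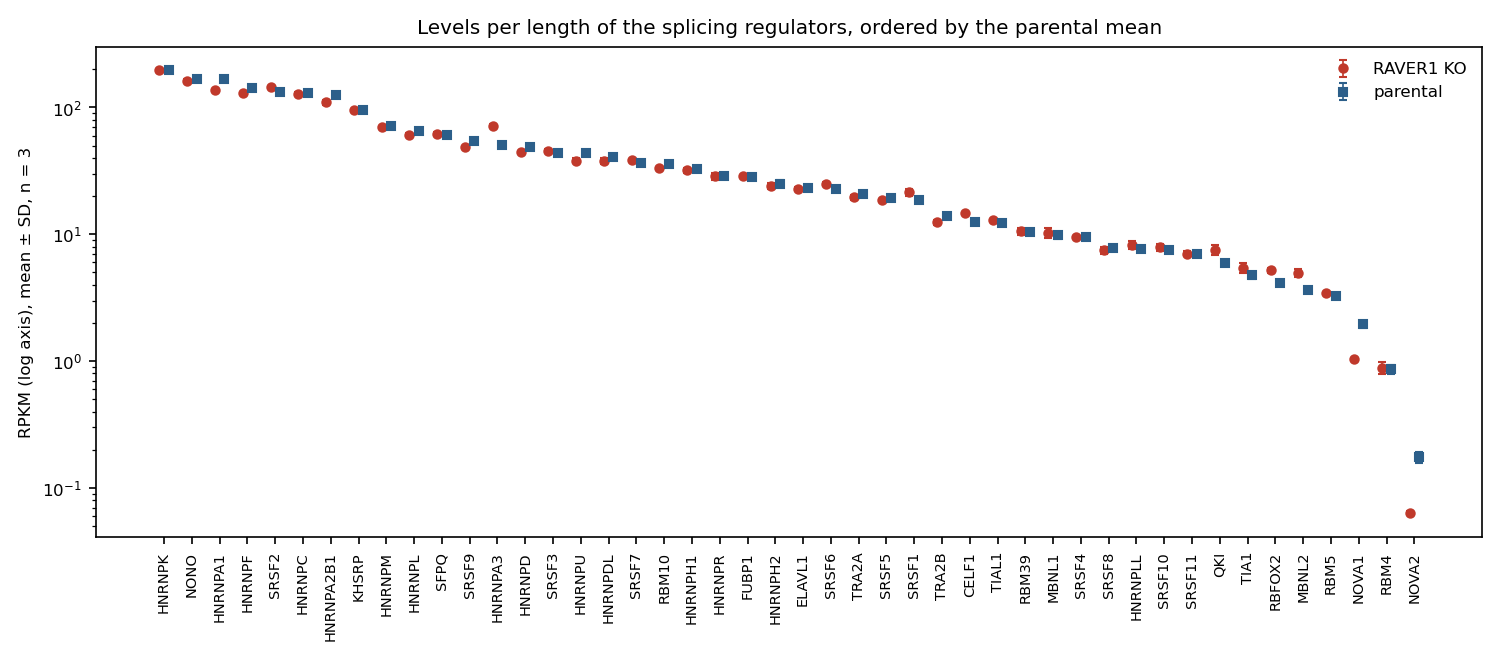
Level per gene length (RPKM, log axis; mean ± SD of 3 libraries) of the 46 tested splicing regulators in RAVER1 KO and parental cells, ordered by the parental mean. HNRNPK is highest in both groups and NOVA2 lowest, at 0.0637 RPKM in KO and 0.175 RPKM in parental libraries.

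Genes that work with these regulators were counted in the same test. The share called was 37.5% for core spliceosome genes, 12.5% for kinases of SR proteins, 48.3% for relatives of the regulators and 18.75% for nonsense-mediated decay. Of all tested genes 41.4% were called, 21.3% higher and 20.1% lower. Of 40 core spliceosome genes, 10 were higher and 5 lower in KO, with a median log2 fold change of 0.0001. The helicase SNRNP200 (0.50, edgeR adjusted p 9.27e-09), the ubiquitin ligase PRPF19 (0.34, 1.66e-06) and the branch site factor SF3B1 (0.37, 1.40e-05) had the smallest p. SNRNP200 and SF3B1 lie on chromosome 2, as do 4 of the 40 in all, of which 3 were higher, beside 66.8% of all tested genes of the chromosome. Of 8 tested kinases of SR proteins, only CLK1 passed in edgeR, at 21.9 ± 0.937 CPM in KO and 13.5 ± 0.929 CPM in parental libraries (SD, n = 3 each; log2 fold change 0.70, adjusted p 2.37e-07), and it too is on chromosome 2. Of 29 tested relatives of the regulators, 8 were higher and 6 lower. The smallest p were those of falls, although more were higher than lower. They were RBM47 (-0.51, edgeR adjusted p 2.39e-08), an epithelial splicing and editing cofactor, SRSF12 (-1.51, 6.05e-06) and SRRM3 (-0.60, 6.71e-06), a relative of SRRM4 that also promotes microexons. SRSF12 was rare, with 21, 31 and 25 counts in KO libraries and 65, 61 and 69 in parental libraries. Of 16 genes of nonsense-mediated decay, 2 were higher and 1 lower, among them CASC3 (0.13, edgeR adjusted p 0.0238) and SMG6 (-0.13, edgeR adjusted p 0.0378). Both of these calls were lost at a stricter adjusted p of 0.01.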

How the data were processed

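PolyA RNA of 3 RAVER1 KO and 3 parental A549 libraries was sequenced after TRIzol extraction and a stranded mRNA library kit, per the labels' protocols. Reads were trimmed with cutadapt 2.8, aligned to hg38 with HISAT2 2.1.0, handled with SAMtools 1.10 and counted with featureCounts 2.0.0. These tools are named per the submitters' processing notes. The authors deposited raw read counts per gene and library, whole numbers with no normalization, and a gene length in bases. The sources used here give no annotation release, no strand setting of the counting and no handling of multi-mapping reads.

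Groups were taken from the sample titles. Pairs of libraries were compared within each group, none agreed within sampling noise, and all 6 were kept. In this check, chi-square per degree of freedom is larger for libraries that are less alike. KO replicate 1 was at 8.86 against KO replicate 2 and 5.70 against KO replicate 3. KO replicates 2 and 3 were at 2.41, and parental pairs at 2.65 to 4.98. In R 4.3.3, edgeR 4.0.16 kept 16652 genes with filterByExpr, scaled libraries with TMM and compared KO with parental libraries by the quasi-likelihood F-test with no covariate. Benjamini-Hochberg adjustment ran over all genes kept, with a threshold of 0.05. CPM and RPKM use the TMM-scaled library sizes and the deposited length. The fit was tested on simulated counts. Gene positions and exon overlaps came from GENCODE release 29 on hg38, joined by Ensembl identifier, and promoters from RefSeq.

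The 49 genes and all lists were chosen with earlier results of these data known. By the naming rule, values in every library are given for regulators past the threshold with an absolute log2 fold change of at least 0.3, those on chromosome 2, the lowest p in a family without such a gene, and untested ones by counts; from each related list up to 3 genes with the smallest adjusted p are named. The value of 1 gene that this rule would name is not reported here. Values by library for other regulators, the 20 CPM limit, the pseudogene sums and the promoter motifs were added after values were seen. Alternatives were RLE and upper-quartile scaling, scaling without chromosome 2, no filter, at least 1 CPM in 3 libraries, DESeq2 1.42.0, limma-voom (limma 3.58.1), the replicate number as a block, an adjusted p under 0.01, at least 1.25-fold, and each library left out.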

Additional observations from a re-analysis of the deposited data

How the results depend on the processing

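Of the 18 regulators called, 6 (NOVA1, NOVA2, MBNL2, QKI, RBFOX2 and HNRNPA3) kept their call in all 16 alternatives, and 13 did when the stricter p and fold thresholds were set aside. Of the 28 not called, 9 were called in at least 1 alternative. Requiring the fold minimum as well left 4 higher and 2 lower, or 3 higher and 2 lower outside chromosome 2, with 0 hnRNP genes lower, 0 SR and TRA2 genes in either direction, 1 CELF and MBNL gene higher and 0 other RNA-binding genes higher. An adjusted p under 0.01 left 3 hnRNP genes lower, 1 SR and TRA2 gene higher and 0 other RNA-binding genes higher. Over all 16652 tested genes, calls also became fewer, from 3543 higher and 3343 lower in the main fit. The fold minimum left 2165 higher and 2034 lower, and an adjusted p under 0.01 left 2654 higher and 2422 lower. Upper-quartile scaling gave 1 SR and TRA2 gene higher, 1 RBM gene lower and 0 other RNA-binding genes higher, and DESeq2 also gave 0 of the last. With a library left out, hnRNP genes ranged from 1 to 2 higher and 3 to 6 lower, SR and TRA2 genes from 1 to 4 higher, RBM genes from 0 to 1 lower and other RNA-binding genes from 0 to 1 higher. The low of 3 came without KO replicate 3, and the single SR and TRA2 gene without parental replicate 3. Over all alternatives, core spliceosome genes ranged from 3 to 16 higher and 0 to 8 lower, kinases of SR proteins from 1 to 3 higher and genes of nonsense-mediated decay from 0 to 3 higher and 0 to 5 lower, and the fold minimum left 1 related regulator higher.

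Whether the replicate numbers pair the libraries was not settled. Correlations were 0.129, 0.029 and 0.014 between same-numbered deviations, and between -0.093 and 0.067 for the other combinations. Neither labels nor titles say that the numbers mark a shared day. With the replicate number as a block, 4275 genes were higher and 4071 lower over all genes, and among the regulators 12 were higher and 13 lower. The block gave 2 hnRNP genes higher, 1 RBM gene lower, and 2 higher and 1 lower among other RNA-binding genes.

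Values that changed sign were all close to 0 and not called. Scaling without chromosome 2 put HNRNPK at 0.00063, HNRNPM at 0.0042 and SRSF4 at 0.0063. Upper-quartile scaling put SRSF11 at -0.014, RBM4 at -0.0012, RBM39 at -0.020 and KHSRP at -0.030, and KHSRP was at -0.0013 with RLE scaling and -0.0010 in DESeq2. With a library left out, HNRNPK ranged from -0.026 to 0.0028, HNRNPR from -0.068 to 0.028, SRSF4 from -0.035 to 0.0074, SRSF11 from -0.012 to 0.059, RBM4 from -0.040 to 0.12, RBM39 from -0.020 to 0.063 and KHSRP from -0.019 to 0.020. The cause of these changes was not tested. Depth limits NOVA2, CELF2, MBNL3 and SRRM4, and 3 libraries a group limit the smaller changes.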
